A study of Homo sapiens with 6 samples.

Results

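The genes described here are MYC and 32 genes of ribosome assembly. They were chosen by symbol for their known roles, with earlier results of these data known. All 33 were matched to 1 row each of a count table of 60605 human genes, and all 33 were among the 17371 genes that passed the filter on low counts. Messenger RNA was sequenced from HuCCT-1, an established human line derived from bile duct cancer (cholangiocarcinoma). The 2 groups were cells given 6 nM of the PRMT5 inhibitor JNJ-64619178 over 4 days, PRMT5 being an enzyme that methylates arginines, and cells given an equal volume of the solvent DMSO, with 3 libraries each. All libraries came from this 1 cell line, with no other genotype or agent, and the labels do not say whether replicates were separate cultures. The p-values therefore cover only how far these libraries varied, possibly for technical reasons.

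Ribosomes are built in the nucleolus. RNA polymerase I makes a long precursor of ribosomal RNA, small nucleolar ribonucleoproteins (snoRNPs) modify its bases and riboses, and large assemblies of proteins fold and cut it into the small (40S) and large (60S) subunits. MYC is a transcription factor that binds the E-box CACGTG with its partner MAX and is known as an activator of many of these genes, which makes them common readouts of growth in cancer cells. The libraries hold messenger RNA of these factors and say nothing directly about ribosomal RNA or ribosome number.

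With the inhibitor, most of these transcripts stayed close to their level with DMSO. In edgeR's quasi-likelihood test, 4 of the 33 rose (NOP2, PPAN, RRP9 and MYBBP1A), 5 fell (NHP2, BYSL, RRS1, UTP4 and DKC1) and 24 did not pass an adjusted p of 0.05. The 9 called members make up 27.3% of the 33, against 37.1% of all genes tested, where 20.0% were higher and 17.1% were lower. MYC itself was not called. With upper-quartile scaling the calls leaned to lower values, both among all genes (2800 higher and 4099 lower, against 3478 and 2970) and among the members (2 higher and 8 lower). Without DMSO replicate 2, 2 members were called higher. The median log2 fold change, inhibitor over DMSO, was 0.02 over the members and 0.001 over all genes tested, and the median size regardless of sign was 0.10 over the members and 0.21 over all genes. In 31 of the 33 (93.9%) the change was under 1.25-fold in either direction, against 66.4% of all genes tested. The exceptions were NOP2 and PPAN, which share most of their exonic bases with other genes, as described with them. All genes tested include genes with far fewer reads than any member, where fold changes are less exact. Sizes of change were not compared with genes of matched level.

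Total counts per library ranged from 23931991 to 28224911 with the inhibitor and from 28133746 to 30691914 with DMSO. Levels are given as CPM, reads of a gene relative to the total of its library, with totals scaled by TMM, which sets the bulk of genes equal between libraries. A change in the RNA of the whole cell would not be seen on this scale, and fewer cells of a kind and less RNA per cell cannot be told apart. The mean count of a member per library ran from 139 (NOP2) to 15206 (NPM1), with a median of 1710.5. Of the biliary epithelial markers KRT7, KRT19, KRT8, KRT18, EPCAM, SOX9 and CDH1, all 7 were detected, and their summed level was 4553 to 4818 CPM with the inhibitor and 5625 to 5897 CPM with DMSO. Markers of fibroblasts summed to at most 1.63 CPM and those of endothelium to at most 1.33 CPM in any library. Those of leukocytes summed to 3.37 to 3.73 CPM with the inhibitor and 2.13 to 2.95 CPM with DMSO. CD14 was the 1 leukocyte marker that passed the filter on low counts, and it rose by 0.52 on the log2 scale (edgeR adjusted p = 0.0266). Of the hepatocyte markers TTR was at 0 in all libraries, and SERPINA1 alone passed the filter on low counts, at 373 ± 18.9 CPM with the inhibitor and 345 ± 8.11 CPM with DMSO. Of the biliary markers SOX9 rose and KRT7, KRT18, KRT8 and KRT19 fell, and the part of this in the values of the members was not tested.

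**Figure D1:**
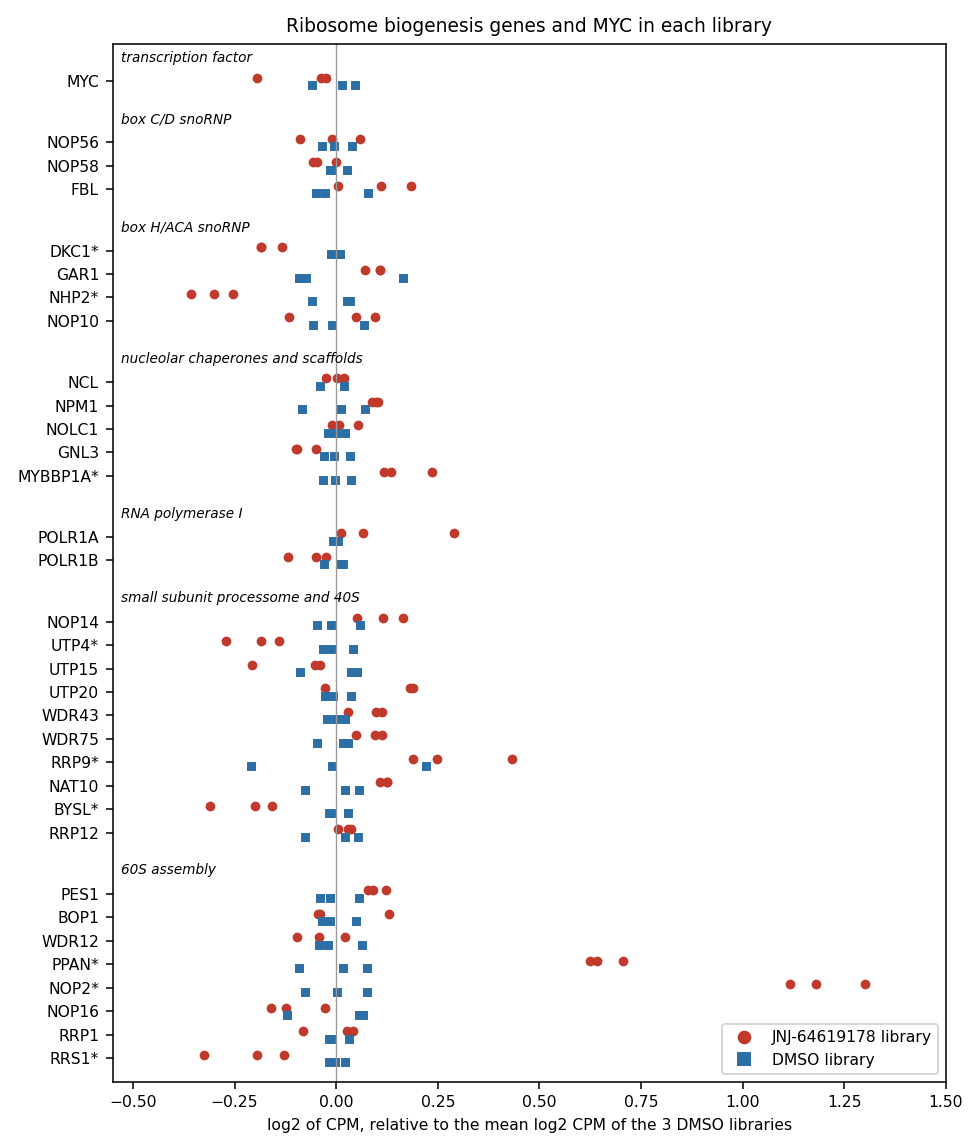
Each row is a gene, ordered by role, and each point is 1 library. The x axis gives the log2 of CPM relative to the mean log2 CPM of the 3 DMSO libraries; circles are inhibitor libraries, squares DMSO libraries, and a star marks the 9 genes with an adjusted p under 0.05. NOP2 and PPAN lie far to the right. The fitted log2 fold changes of the other 31 genes ran from -0.30 to 0.29, and points of single libraries, as in RRP9, can lie beyond that range.

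In 15 of the 33 genes the groups did not overlap, with the inhibitor libraries higher in 9 and lower in 6. This is 45.5% of the members, against 47.0% of all genes tested, where they were higher in 24.7% and lower in 22.2%. Of the 9 called members, only RRP9 had overlapping groups. For each of the 24 members that were not called, the 95% interval of the log2 fold change lay within 1.25-fold on both sides, with bounds between -0.24 and 0.28. Summed over all 33 genes, the level was 3052, 3119 and 3061 CPM with the inhibitor and 2997, 3057 and 3067 CPM with DMSO. The groups overlapped in this sum, to which NPM1 and NCL contributed most.

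MYC had 173, 194 and 193 CPM with the inhibitor, against 199, 204 and 190 CPM with DMSO. The groups overlapped, with inhibitor replicate 1 the lowest of all and DMSO replicate 3 below both other inhibitor libraries. The log2 fold change was -0.08 (SE 0.05, 95% interval -0.19 to 0.02, edgeR adjusted p = 0.196). MYC passed with upper-quartile scaling (log2 fold change -0.14, adjusted p = 0.029), a scaling that places all genes 0.06 lower at the median. MYC (ENSG00000136997) lies on chromosome 8 at 127735434 to 127741434 (GENCODE release 29, GRCh38).

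The other genes of the MYC family were far less abundant. MYCN, the family member best known from neuroblastoma, had 1.87, 1.89 and 1.48 CPM with the inhibitor and 0.44, 0.72 and 0.51 CPM with DMSO, from 46, 54 and 35 reads and from 13, 20 and 16 reads. All inhibitor libraries lay above all DMSO libraries, and MYCN rose 3.14-fold (log2 fold change 1.65, SE 0.29, adjusted p = 7.63e-05). MYCL had 1.38, 1.5 and 1.4 CPM with the inhibitor and 2.41, 2.03 and 1.99 CPM with DMSO, and fell by 0.58 on the log2 scale (adjusted p = 0.0363). Per kilobase of exonic length, MYC stood at 62.1 CPM with the inhibitor and 65.8 CPM with DMSO, MYCN at 0.67 and 0.21 CPM, and MYCL at 0.28 and 0.42 CPM. MYC therefore remained the family member with the highest level in both groups.

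**Figure D2:**
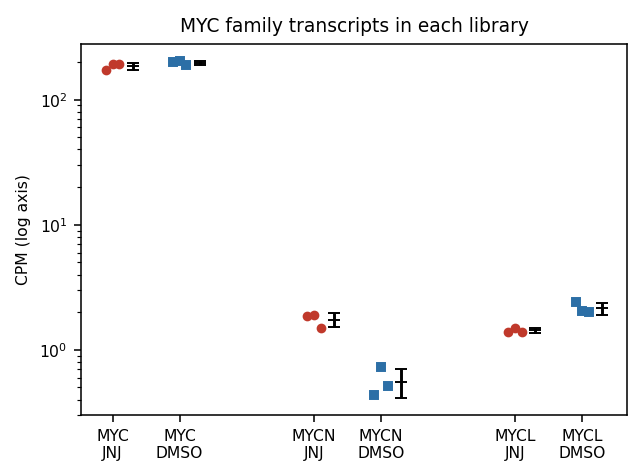
CPM of MYC, MYCN and MYCL on a log axis, with inhibitor libraries (circles) left of DMSO libraries (squares) for each gene; bars show the mean ± SD of 3 libraries. MYC is near 190 CPM in both groups, while MYCN averages 1.75 CPM with the inhibitor and 0.56 CPM with DMSO.

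In the list of 19 partners, antagonists and regulators of MYC, which holds MYCN and MYCL, 7 rose and 2 fell, and the median log2 fold change was 0.09. Together 47.4% were called, against 37.1% of all genes tested. MLX, which dimerises with the glucose-responsive factors of the network, rose by 0.30 (71.3 ± 3.69 CPM with the inhibitor, 57.9 ± 2.15 CPM with DMSO). MLXIP, one of those factors, rose by 0.30 (97.6 ± 1.69 and 79.5 ± 0.1 CPM), and TRRAP, a scaffold of histone acetyltransferase complexes that MYC recruits, rose by 0.25 on the log2 scale. MXD4, which competes with MYC for MAX, fell by 0.26 on the log2 scale (24.4 ± 0.55 and 29.3 ± 1.32 CPM).

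The E-box is the sequence feature that links these genes to MYC, and so it was searched in their promoters. RefSeq windows of 300 bases (250 before to 50 after the gene start, GRCh38.p14) were matched for 27 of the 33 genes. MYC, NOP58, NOLC1, RRP12, BOP1 and RRS1 were not matched. CACGTG, which reads the same on both strands, was present for 14 of the 27 (51.9%), against 12.5% of 10553 protein-coding genes tested and 7.26% of all 35116 windows. Of 15 matches, 14 began within 40 bases of the RefSeq gene start. The called genes with a match were NOP2, RRP9 and MYBBP1A, which rose, and BYSL and UTP4, which fell. Their E-boxes are shown first, followed by those of 3 genes that were not called, to show that the same letters stand at genes that moved up, down or not past the test. Each line gives 30 bases, 5′ to 3′ on the strand of the gene, with the E-box in capitals.
NOP2 (chr12:6568242-6568271, minus strand): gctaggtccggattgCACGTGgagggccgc
RRP9 (chr3:51941892-51941921, minus strand): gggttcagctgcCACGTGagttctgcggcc
MYBBP1A (chr17:4555340-4555369, minus strand): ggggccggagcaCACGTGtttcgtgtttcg
BYSL (chr6:41921515-41921544, plus strand): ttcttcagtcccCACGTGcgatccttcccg
UTP4 (chr16:69132621-69132650, plus strand): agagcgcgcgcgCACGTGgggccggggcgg
NAT10 (chr11:34105602-34105631, plus strand): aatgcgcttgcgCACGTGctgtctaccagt
FBL (chr19:39846356-39846385, minus strand): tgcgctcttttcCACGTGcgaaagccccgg
UTP20 (chr12:101280083-101280112, plus strand): cttttttccgtcCACGTGacccactcaggc

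Counted from the RefSeq gene start, the E-box begins 5 bases before it in RRP9, 16 before it in UTP4, 15 before it in NAT10 and 10 before it in UTP20. In the others shown it begins at base 36 after that start in NOP2, 28 in MYBBP1A, 29 in BYSL and 7 in FBL. The GENCODE start lies upstream of the RefSeq start in all genes shown except UTP20. Among the 14 genes with an E-box 3 rose, 2 fell and 9 were not called, with a median log2 fold change of 0.10. Among the 13 without one 1 rose (PPAN), 2 fell (NHP2 and DKC1) and 10 were not called, with a median of -0.01. Over all genes tested 20.0% were higher and 17.1% lower. A match of these letters is not evidence of MYC binding.

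Neither of the 2 large subunits of RNA polymerase I was called. POLR1A, the largest subunit, had 78.9, 65.1 and 67.6 CPM with the inhibitor, against 64.7, 64.3 and 64.7 CPM with DMSO. All inhibitor libraries were higher, yet replicate 1 stood apart from the other 2 by more than these did from DMSO (log2 fold change 0.13, SE 0.06, adjusted p = 0.0996). Without inhibitor replicate 1 the log2 fold change of POLR1A was 0.04 (adjusted p = 0.612), and without inhibitor replicate 2 it was 0.18 and passed (adjusted p = 0.0143). POLR1B, the second largest subunit, averaged 45.8 ± 1.54 CPM with the inhibitor and 47.8 ± 0.85 CPM with DMSO (log2 fold change -0.06, adjusted p = 0.378). Of 13 further subunits and initiation factors 3 rose and 3 fell, with a median of -0.07, so that 46.2% were called against 37.1% of all genes tested. RRN3, which recruits the polymerase to the ribosomal gene promoter, rose by 0.30 on the log2 scale (48.5 ± 1.38 CPM with the inhibitor, 39.3 ± 1.12 CPM with DMSO). TAF1D, part of the promoter selectivity factor (0.15), and UBTF, which binds the promoter (0.14), rose too. For UBTF the groups overlapped (edgeR adjusted p = 0.044). POLR1E (-0.24), POLR1G (-0.24) and TTF1, a terminator-binding factor (-0.24), fell. POLR1G shares 45.1% of its exonic bases with a gene on the opposite strand.

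The 3 members of the box C/D snoRNP, which places ribose methyl groups on ribosomal RNA, were not called. Its protein SNU13, given below with further snoRNP proteins, rose. The scaffold NOP56 averaged 178 ± 9.05 CPM with the inhibitor and 180 ± 4.64 CPM with DMSO (log2 fold change -0.01), and NOP58 averaged 61.2 ± 1.26 and 62.7 ± 1.01 CPM (-0.03). FBL, the methyltransferase fibrillarin, had 87.4, 99 and 94 CPM with the inhibitor and 85.4, 84.2 and 91.9 CPM with DMSO. The groups overlapped and FBL was not called (0.10, adjusted p = 0.138), with 0.15 and a call without inhibitor replicate 1 (adjusted p = 0.029) and 0.06 without inhibitor replicate 2 (adjusted p = 0.436).

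In the box H/ACA snoRNP, which converts uridine to pseudouridine, 2 of the 4 proteins fell, where 17.1% of all genes tested were lower. DKC1, the pseudouridine synthase dyskerin, had 178, 184 and 178 CPM with the inhibitor, against 203, 203 and 200 CPM with DMSO. NHP2, which binds the guide RNA beside it, had 33.1, 34.2 and 31.9 CPM with the inhibitor, against 39.2, 41.5 and 41.8 CPM with DMSO. The groups did not overlap for either gene, with log2 fold changes of -0.17 for DKC1 (SE 0.04, adjusted p = 0.00339) and -0.30 for NHP2 (SE 0.06, adjusted p = 0.000174). NHP2 shares 27.4% of its exonic bases with RMND5B on the opposite strand, which was not called (log2 fold change 0.12, adjusted p = 0.191), and whether the counting used strand was not stated in the labels or notes. The other core proteins did not pass. GAR1 averaged 13.7 ± 0.2 CPM with the inhibitor and 12.9 ± 1.31 CPM with DMSO, and NOP10 36.7 ± 2.77 and 36.4 ± 1.6 CPM.

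Among 12 further snoRNP proteins and assembly factors 3 rose and 3 fell, with a median of -0.06, so that 50% were called against 37.1% of all genes tested. PIH1D1, a subunit of the R2TP chaperone that assembles snoRNPs and other complexes, had 101, 117 and 115 CPM with the inhibitor, against 55.1, 56.3 and 54.3 CPM with DMSO. It rose 2.01-fold (log2 fold change 1.01, SE 0.06, adjusted p = 8.42e-13), and its lowest inhibitor library lay well above its highest DMSO library. SNU13, which binds the kink of box C/D RNAs, rose by 0.28 on the log2 scale (53.9 ± 2.37 and 44.3 ± 1.2 CPM), and ZNHIT3 by 0.23. ZNHIT6 (-0.21), RPAP3, the R2TP partner of PIH1D1 (-0.16), and SHQ1, a chaperone of dyskerin (-0.33, at 5.42 and 6.84 CPM), fell.

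Of the 10 members of the small subunit processome and 40S assembly, 1 rose and 2 fell. Over all genes tested 20.0% were higher and 17.1% lower. RRP9, a WD-repeat protein of the U3 snoRNP, had 19.9, 23.6 and 20.7 CPM with the inhibitor, against 20.3, 17.3 and 15.1 CPM with DMSO. The groups overlapped through DMSO replicate 1 (log2 fold change 0.29, SE 0.09, adjusted p = 0.0162). Its call was lost in 4 alternatives, which were the fits without DMSO replicate 2 (log2 fold change 0.27, adjusted p = 0.0631), without DMSO replicate 3 (0.17, adjusted p = 0.16), without inhibitor replicate 2 (0.21, adjusted p = 0.0976) and with upper-quartile scaling (0.23, adjusted p = 0.0533). Without DMSO replicate 1 the log2 fold change of RRP9 was 0.40. UTP4, which joins the nascent precursor early as part of the UTP-A complex, had 32.9, 34.9 and 36 CPM with the inhibitor, against 40.9, 39.4 and 38.8 CPM with DMSO. It fell by 0.20 on the log2 scale (SE 0.06, adjusted p = 0.00815), with no overlap between the groups. BYSL, the 40S assembly factor bystin, had 14.7, 15.2 and 13.6 CPM with the inhibitor, against 16.7, 17.3 and 16.8 CPM with DMSO, and fell by 0.22 on the log2 scale (SE 0.08, adjusted p = 0.0287). BYSL also did not overlap between groups, and lost its call at similar sizes in DESeq2 (-0.23, adjusted p = 0.0546), without inhibitor replicate 3 (-0.18, adjusted p = 0.133) and without DMSO replicate 2 (-0.21, adjusted p = 0.0846).

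The other UTP-A genes among the members were UTP15 (-0.10, adjusted p = 0.227), WDR43 (0.08, adjusted p = 0.18) and WDR75 (0.09, adjusted p = 0.177). They were not called, and WDR43 and WDR75 had all inhibitor libraries above all DMSO libraries. The differences between these genes and UTP4 were not tested. NAT10, which acetylates cytidines of the small subunit RNA, had 106, 106 and 105 CPM with the inhibitor, against 92.1, 101 and 98.5 CPM with DMSO. It was not called (log2 fold change 0.12, adjusted p = 0.0528) and passed with limma-voom (0.048) and with the filter of CPM above 1 in 3 libraries (0.0475). NOP14 (0.11), UTP20, a large scaffold protein (0.11), and RRP12, an export factor (0.02), were not called.

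The wider list of 45 genes of the processome and 40S assembly moved both ways, with 11 higher, 9 lower and a median of 0.02, so that 44.4% were called against 37.1% of all genes tested. UTP6 rose by 0.41 (109 ± 6.3 CPM with the inhibitor, 82.3 ± 0.77 CPM with DMSO), the helicase gene DHX37 by 0.34, ESF1 by 0.34 and the 40S export factor gene LTV1 by 0.43 on the log2 scale. DCAF13 fell by 0.34 (61 ± 1.95 and 77.4 ± 0.72 CPM), the kinase gene RIOK2 by 0.31, NOC4L by 0.29 and the helicase gene DDX10 by 0.20. LTV1 shares 34.8% of its exonic bases with another gene on its own strand.

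Among the 8 members of 60S assembly, 2 rose and 1 fell, against 20.0% higher and 17.1% lower among all genes tested. The PeBoW complex, which is needed to cut out the large subunit RNA, was not called at any of its 3 genes. PES1 had 67.8, 67.3 and 69.4 CPM with the inhibitor, against 63, 61.9 and 66.2 CPM with DMSO, with no overlap (0.10, adjusted p = 0.132). BOP1 averaged 68.4 ± 4.78 and 67.6 ± 2.04 CPM and WDR12 35.5 ± 1.46 and 36.5 ± 1.41 CPM. RRS1, which helps to bring the 5S particle into the large subunit, had 19.7, 21.6 and 22.6 CPM with the inhibitor, against 24.7, 24.4 and 25.1 CPM with DMSO. All inhibitor libraries were lower (log2 fold change -0.21, SE 0.07, adjusted p = 0.0165), and the call was lost without inhibitor replicate 1 (-0.16, adjusted p = 0.0861). RRS1 shares 11.4% of its exonic bases with another gene on its own strand, whose row held 0 reads. NOP16 (-0.10) and RRP1 (-0.004) were not called.

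NOP2, which methylates a cytosine of the large subunit RNA, and PPAN, a factor of 60S assembly, had the largest fold changes of the 33. NOP2 had 6.83, 7.14 and 7.76 CPM with the inhibitor, against 3.32, 3.15 and 2.99 CPM with DMSO. PPAN had 11.6, 12.1 and 11.4 CPM with the inhibitor, against 7.51, 7.82 and 6.97 CPM with DMSO. Every inhibitor library was above every DMSO library for both genes. The fold was 2.3 for NOP2 (log2 fold change 1.20, SE 0.13, adjusted p = 1.22e-07) and 1.58 for PPAN (0.66, SE 0.10, adjusted p = 9.14e-06).

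These counts may not cover the whole of each gene. NOP2 (ENSG00000111641, chromosome 12, 6556863 to 6568691) shares 54.4% of its exonic bases with a longer gene on the same strand, ENSG00000285238, which begins upstream within CHD4 and runs into NOP2. PPAN (ENSG00000130810, chromosome 19, 10106289 to 10111634) shares 59.8% with the readthrough gene PPAN-P2RY11 and with P2RY11 on its strand. Both readthrough genes are rows of the count table with 0 reads in all 6 libraries, so no read in the shared bases was assigned to them. If reads in such bases were left out as ambiguous, a setting that the labels and notes do not state, the rows of NOP2 and PPAN hold reads of the unshared bases alone. In the main annotated transcript 83.5% of the bases of NOP2 and 87.3% of those of PPAN are shared. Of the 2137 unshared exonic bases of NOP2, 51.6% lie outside any transcript annotated as protein-coding, and for PPAN it is 42.3% of 1039 bases. With DMSO, NOP2 had 0.67 CPM per kilobase of all its exonic bases, the lowest of the 33 genes. That length includes the shared bases, so this rank may not hold if only unshared bases were counted. The rise of NOP2 and PPAN is therefore a rise in these rows, and whether their full-length transcripts rose was not tested.

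**Figure D3:**
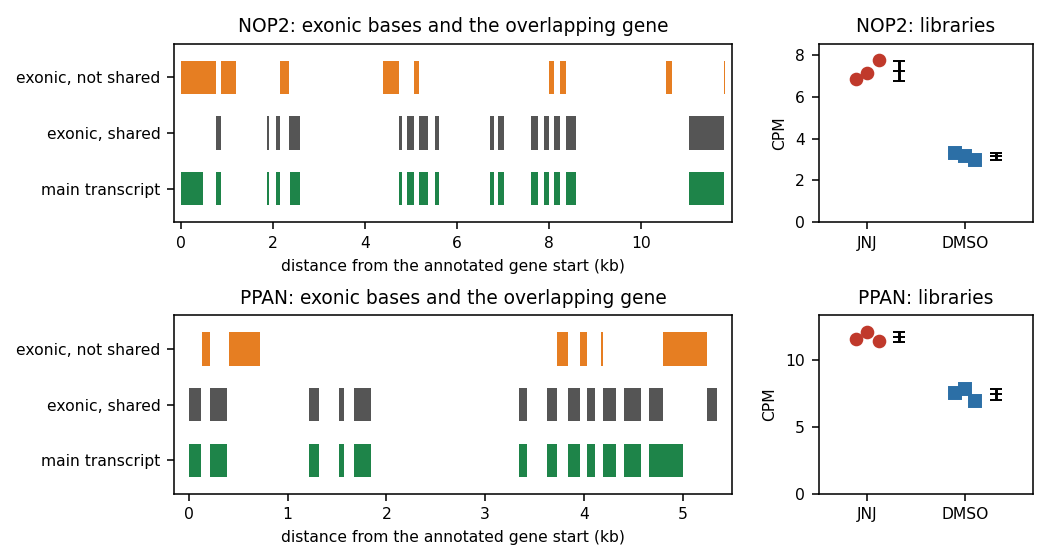
Left, exonic bases of NOP2 and PPAN by distance from the annotated gene start in kilobases, divided into bases not shared with another gene on the strand, shared bases, and the main transcript. Right, CPM of each library with the mean ± SD of 3; shared bases make up most of the main transcript of both genes, and the inhibitor libraries (circles) lie above the DMSO libraries (squares) in both genes.

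The neighbours of these genes, looked up after the values were seen, differed. P2RY11, a receptor gene that lies beyond PPAN in the same readthrough unit, rose by 0.89 on the log2 scale (19.5 ± 0.46 CPM with the inhibitor, 10.5 ± 0.92 CPM with DMSO, adjusted p = 7.8e-09). CHD4, which lies upstream of NOP2, was not called (0.05, adjusted p = 0.593). The rows of P2RY11 and CHD4 may lack ambiguous reads in the same way, and their full-length transcripts were not tested. Of 260 genes tested that shared at least 50% of exonic bases on their strand, 18.1% were higher and 8.46% lower, against 20.2% and 17.2% of the other genes with an annotation.

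In the wider list of 49 genes of 60S assembly, 14 rose and 6 fell, with a median of 0.03, and 40.8% were called against 37.1% of all genes tested. The 4 genes that rose with the smallest p were the helicase genes DDX27 (0.38) and DDX51 (0.41), CEBPZ (0.42) and MDN1 (0.38), the giant motor protein that strips assembly factors from the pre-60S particle. DDX27 averaged 101 ± 2.22 CPM with the inhibitor and 77.2 ± 2.09 CPM with DMSO. RBM28 fell by 0.40 (41.4 ± 2.32 and 54.7 ± 0.52 CPM), TEX10 by 0.27, NOL8 by 0.24 and EIF6, which keeps the subunits apart until maturation ends, by 0.18 on the log2 scale. CEBPZ shares 23.2% of its exonic bases with a gene on the opposite strand.

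**Figure D4:**
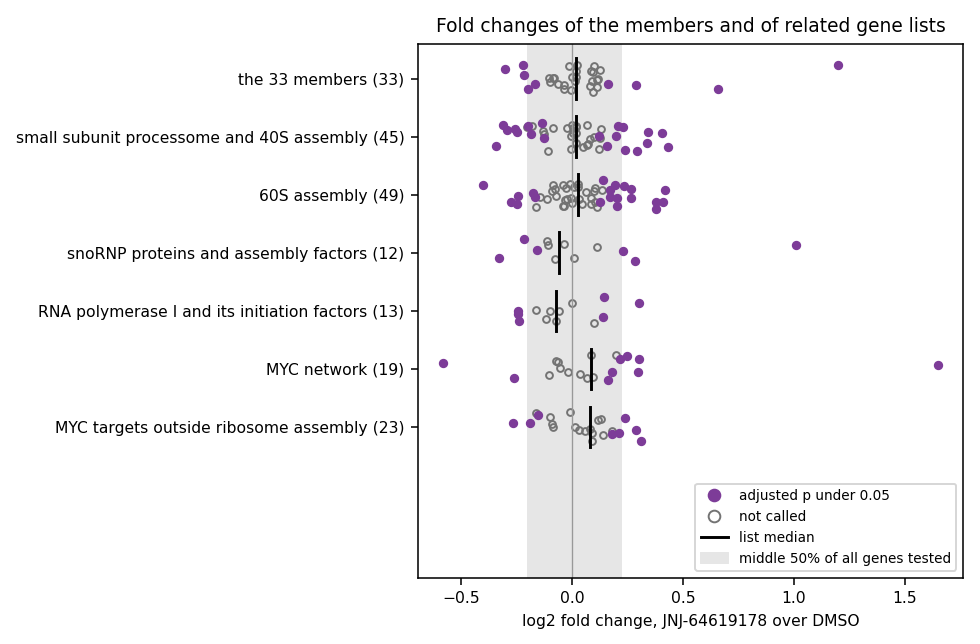
Log2 fold change, inhibitor over DMSO, of each tested gene (points) in the 33 members and 6 related lists, with the number tested in brackets; filled points passed an adjusted p of 0.05, black bars are list medians and the grey band holds the middle 50% of all genes tested. The medians lie between -0.07 and 0.09, and NOP2, PPAN, PIH1D1, MYCN and MYCL stand apart.

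Of the 5 genes of nucleolar chaperones and scaffolds only MYBBP1A was called, as higher. Over all genes tested 20.0% were higher and 17.1% lower. NPM1, the chaperone nucleophosmin, had 568, 572 and 573 CPM with the inhibitor, against 504, 539 and 561 CPM with DMSO. The inhibitor libraries were all higher and close together, and the gene was not called (0.10, adjusted p = 0.11), except without DMSO replicate 3 (0.12, adjusted p = 0.0496), while without DMSO replicate 1 the difference was 0.05 (adjusted p = 0.521). GENCODE lists 45 numbered pseudogenes of NPM1, which held 1.73% as many reads as NPM1 itself. NCL, the RNA-binding protein nucleolin, averaged 443 ± 7.08 CPM with the inhibitor and 444 ± 10.3 CPM with DMSO, and NOLC1, which escorts snoRNPs, 156 ± 3.67 and 154 ± 2.15 CPM. The GTPase gene GNL3, known as nucleostemin, averaged 88 ± 1.73 and 93.1 ± 2.08 CPM with no overlap between the groups and no call (-0.08, adjusted p = 0.175). MYBBP1A, a repressor of ribosomal gene transcription, had 107, 116 and 108 CPM with the inhibitor, against 96.3, 98.2 and 101 CPM with DMSO. MYBBP1A rose by 0.16 on the log2 scale (SE 0.05, adjusted p = 0.00826) with no overlap. Its call was lost without DMSO replicate 1 (0.14, adjusted p = 0.0605), without DMSO replicate 2 (0.16, adjusted p = 0.0506) and with upper-quartile scaling (0.11, adjusted p = 0.0853).

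MYC targets outside ribosome assembly likewise moved both ways. Of 23 tested in a list of 24, 5 rose and 3 fell, which is 34.8% called against 37.1% of all genes tested, and the median was 0.08. LDHA, lactate dehydrogenase, rose by 0.29 (213 ± 5.8 CPM with the inhibitor, 174 ± 10.7 CPM with DMSO), the DNA repair nuclease gene APEX1 by 0.31, the mitochondrial chaperone gene TRAP1 by 0.24 (29.3% of its exonic bases shared with an opposite gene) and SHMT2, of serine metabolism, by 0.21 on the log2 scale. CAD, which starts pyrimidine synthesis, fell by 0.19 (84 ± 3.52 and 95.8 ± 1.94 CPM), the folate carrier gene SLC19A1 by 0.27 and PTMA by 0.15.

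Gene structure differed among the 33 genes in ways the choice of members did not use. Of the 17 genes with a transcript of at least 15 exons, 12 had a log2 fold change above 0, with a median of 0.09, 3 called higher and 2 called lower. Of the 16 with fewer exons 6 were above 0, with a median of -0.01, 1 called higher and 3 called lower. The same split over all protein-coding genes tested gave medians of 0.10 in 3708 genes and -0.01 in 9355 genes. Calls were not counted over that split, and 20.0% of all genes tested were higher and 17.1% lower. Another shared feature is that 7 members (21.2%) carry annotated snoRNAs inside them on the same strand, 25 in all, against 1.53% of all genes tested. These hosts are NOP56, NOP58, DKC1, NCL, GNL3, WDR43 and PPAN. Of the 7 hosts 2 were called, DKC1 lower and PPAN higher, and their median was -0.01, against 0.02 in the other 26. Over all 266 hosts tested 38.3% were called, with a median of 0.03. The snoRNAs themselves are not polyadenylated and were not measured here.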

How the data were processed

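The values analysed are raw counts by Ensembl gene identifier in a single table that the authors deposited for the 6 libraries, which they had not normalized. Per the labels' protocols, a stranded Illumina kit for mRNA was used on total RNA. The submitters' processing notes name STAR 2.7.9a, featureCounts 1.6.0, FastQC 0.11.8, limma and edgeR without their roles, and the mouse build GRCm39, although every identifier is human. They do not state the annotation release, the strand setting or how ambiguous reads were treated.

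Of 60649 rows, 44 repeated an identifier with 0 counts and were dropped. Symbols were matched for 60463 of 60605 genes. Gene positions, exons and overlaps came from GENCODE release 29 (GRCh38), which may differ from the authors' annotation, and promoters from RefSeq (GRCh38.p14). Genes were kept with filterByExpr (minimum count 10, total 15), scaled by TMM and compared with edgeR 4.0.16 (glmQLFit, glmQLFTest, group alone), with Benjamini-Hochberg adjustment over all 17371 genes and a threshold of 0.05. Standard errors are the fold change over the square root of F, and 95% intervals use the same fit. The common biological coefficient of variation was 4.89%. Within groups, pairs of libraries had a chi-square of 2.69 to 9.08 per degree of freedom, above counting error, so no library was treated as a repeat deposit of another. In simulated libraries of this design (17105 genes), edgeR recovered 83.7% of genes changed 1.5-fold and 85.9% of those changed 2-fold, and called 8 unchanged genes. Every simulated gene had the same biological variation, unlike real genes, and changes as small as those of most members were not simulated.

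The members and lists were chosen with earlier results of these data known. All 33 members are named. 1 cell type marker is not reported here and was left out of its list's sum. From each other list the text names up to 4 called genes with the smallest p in each direction. Alternatives were DESeq2 1.42.0, limma 3.58.1 (voom and trend), RLE and upper-quartile scaling, 2 other filters, a replicate block and leaving out each library. R 4.3.3 and Python 3.11.15 were used.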

Additional observations from a re-analysis of the deposited data

How the results depend on the processing

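The counts of all genes called stayed within 1.5 times in all 14 alternatives. Members called numbered 2 to 5 higher and 4 to 5 lower when 1 library was left out, with 2 higher without DMSO replicate 2, where RRP9 and MYBBP1A were lost. With upper-quartile scaling 2 members were higher and 8 lower. NOP2, PPAN, NHP2, DKC1 and UTP4 kept their direction and call in all 14. MYC was called with upper-quartile scaling alone (-0.14), and its fold change lay between -0.12 and -0.03 without single libraries. The median over members was -0.042 with upper-quartile scaling and between -0.002 and 0.0338 without single libraries.

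Uncalled genes near 0 changed sign. With upper-quartile scaling these were BOP1 (-0.0405), NOLC1 (-0.042), NOP10 (-0.046) and RRP12 (-0.0368). Without single libraries they were BOP1 (-0.0427 to 0.0493), NCL (-0.0272 to 0.0114), NOLC1 (-0.0011 to 0.031), NOP10 (-0.0323 to 0.073), NOP56 (-0.0488 to 0.0254), RRP1 (-0.0269 to 0.0338) and RRP12 (-0.0222 to 0.0382). The cause was not tested. Same-numbered libraries of the groups did not deviate together (r between -0.02 and 0.002 over genes). These values cannot tell whether such libraries were cultured or prepared together. A fit with the replicate block called the same numbers, 4 members higher and 5 lower.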
